A study of Arabidopsis thaliana with 8 samples.

Results

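Probe sets that were high only in the immature nectaries of Arabidopsis flowers are described here. A probe set belonged to the group where its lowest signal among the 3 immature lateral arrays was at least 3 times its highest signal among the 5 arrays of mature nectaries. Of 22746 probe sets, 102 met this rule. Those for AIR12, BXL1, SWEET8 and EXPA6 were left out by name, and 98 remained. EXPA15, PCNA2 and PRL were also to be left out, but did not meet the rule. The contrast of mature with immature nectaries chose the members, so its values are given as a description without a test. The comparison of the mature types with each other did not choose the members and was tested. The rule still caps the highest of the 5 mature arrays, so it limits how high either mature type can be.

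The study measured RNA of hand-dissected floral nectaries from Arabidopsis thaliana ecotype Columbia-0 on Affymetrix ATH1 arrays. Mature median nectaries (MMN, relatively non-secretory, 2 arrays) and mature lateral nectaries (MLN, secretory, 3 arrays) came from open flowers at stages 14 to 15, and immature lateral nectaries (ILN, pre-secretory, 3 arrays) from buds at stages 11 to 12. Plants were untreated, 30 to 35 days old and kept at 16 h of light and 8 h of dark, and dissection took place 4 to 8 h after dawn. Each array was hybridized with 1 pool of about 250 to 300 nectaries, and the pools came from different plants. Labelling began with 250 ng of RNA for MMN and 500 ng for MLN and ILN, so RNA input and the position of the nectary cannot be told apart. No immature median nectaries were among these samples, so ILN differ from MMN in both stage and position.

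A floral nectary is a small gland of secretory parenchyma that forms at the base of the stamens and exports sugars once the flower opens. Before secretion its cells are still dividing and growing, with dense cytoplasm and small vacuoles, and their plastids store starch. Such growth calls on ribosomes in the cytosol, the mitochondria and the plastids. The plastid ribosome is a bacterial type of ribosome whose proteins are encoded partly in the plastid genome and partly in the nucleus. Plastid genes are read largely by a bacterial type of RNA polymerase to which nuclear-encoded accessory proteins bind. The nucleus also supplies the histones that package new DNA and the enzymes that loosen or cross-link the growing cell wall.

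The deposited signals are linear, and every array had a median of 100. Log2 signals of replicate arrays correlated at 0.988 between the MMN arrays, 0.976 to 0.982 within MLN and 0.963 to 0.988 within ILN, across probe sets that are not independent replicates. Nectary markers were above the array median in every pool, but JMT, a jasmonic acid methyltransferase, differed between types. It had 1932 and 4763 in MMN, 14178, 12445 and 19214 in MLN, and 4750, 2689 and 3826 in ILN. Its log2 difference MLN minus ILN was 2.04 (standard error 0.32, limma adjusted p = 0.00104). For MMN minus MLN it was -2.31 (standard error 0.36, limma adjusted p = 0.0127). CRC, a transcription factor needed for nectaries to form, had signals of 13214 and 16636 in MMN, 8916, 9912 and 16412 in MLN, and 10098, 10705 and 10565 in ILN. SWEET9, the sucrose exporter of nectaries, had 15638 and 12764 in MMN, 15056, 16748 and 14128 in MLN, and 16897, 14229 and 10236 in ILN. The ILN and MLN arrays overlapped for both genes. SHP2, a MADS-box factor of carpels and nectaries, was higher in MMN, with a log2 difference MMN minus ILN of 1.14 (standard error 0.22, limma adjusted p = 0.00471), and in MLN, with MLN minus ILN of 1.32 (standard error 0.20, limma adjusted p = 7.58e-04). Listed genes were found by name, and 7896 probe sets had no gene name here, so a gene not found may still be on the array. The study reported values for AG, SHP1 and MYB21, which are listed but were not found. Summed over the 7 of 12 nectary genes found by name, signals were 68017 to 69143 in MMN, 74201 to 86504 in MLN and 46079 to 64264 in ILN. The tapetum and pollen markers found stayed low. The 3 of 26 tapetum markers found summed to 73.1 to 79.6 in MMN, 78.2 to 106.7 in MLN and 67.3 to 87.8 in ILN. The 3 of 12 pollen markers found summed to 100.4 to 103.1 in MMN, 89.3 to 115.8 in MLN and 67.2 to 89.3 in ILN. None was at 0, since this kind of signal has a floor, but every one of these 6 lay below the array median on every array. PI, a petal and stamen identity gene, had 61.1 and 86.8 in MMN, 70.6, 106 and 66.5 in MLN, and 49.3, 49.1 and 56.1 in ILN. SPT, a bHLH factor of carpel development, had 187 and 364 in MMN, 159.7, 129 and 311 in MLN, and 255, 184 and 221 in ILN, above the array median on all 8 arrays, and was not called between any of the nectary types.

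Across the 98 probe sets the lowest ILN signal was 3.01 to 11.7 times the highest mature signal, with a median of 3.72. It was under 4 times for 59 of them and at least 5 times for 13. The highest mature signal had a median of 145 over the members, against 622 for the lowest ILN signal. The largest ratio belonged to a pectinesterase and the brightest ILN signal to the UV-B receptor UVR8. High only in ILN did not mean absent from mature nectaries. In 36 members the signal was above the array median of 100 on all 5 mature arrays, and in 33 it was below 100 on all of them. Fewer cells of a type and less RNA per cell cannot be told apart in such pools. The members just inside the threshold were AT2G18400, with 243 on its highest mature array and 734 on its lowest ILN array, PnsL1, with 42.8 on the highest mature array and 129 on the lowest ILN array, and the unnamed probe set 261416_at, with 1390.5 on the highest mature and 4180.2 on the lowest ILN array. Just outside were the probe set 267553_s_at, at 2.99 times, the pectinesterase gene PME3, at 2.99 times, and the farnesyl diphosphate synthase gene FPS2, at 2.98 times.

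A single locus could be given to 90 of the 98, 47 by the platform annotation and 43 by the study's tables alone. Of the rest, 4 match several genes and 4 have no gene name here. The 90 loci are on all chromosomes, with 21 on chromosome 1, 14 on 2, 22 on 3, 13 on 4 and 20 on 5, and AT3G04910 and AT3G04920 were the only adjacent pair of protein-coding genes. A role could be given to 77 members from these annotations. Of these, 29 act in plastids, 9 in mitochondrial and cytosolic protein synthesis or close to it, 8 in chromatin and the cell cycle, 13 in the wall or outside the cell, 11 in signalling and regulation, and 7 elsewhere. The roles were assigned after the values had been seen, and part of the names come from lists that the study had chosen by fold on these arrays, so shares by role were not set against the whole chip.

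**Figure D1:**
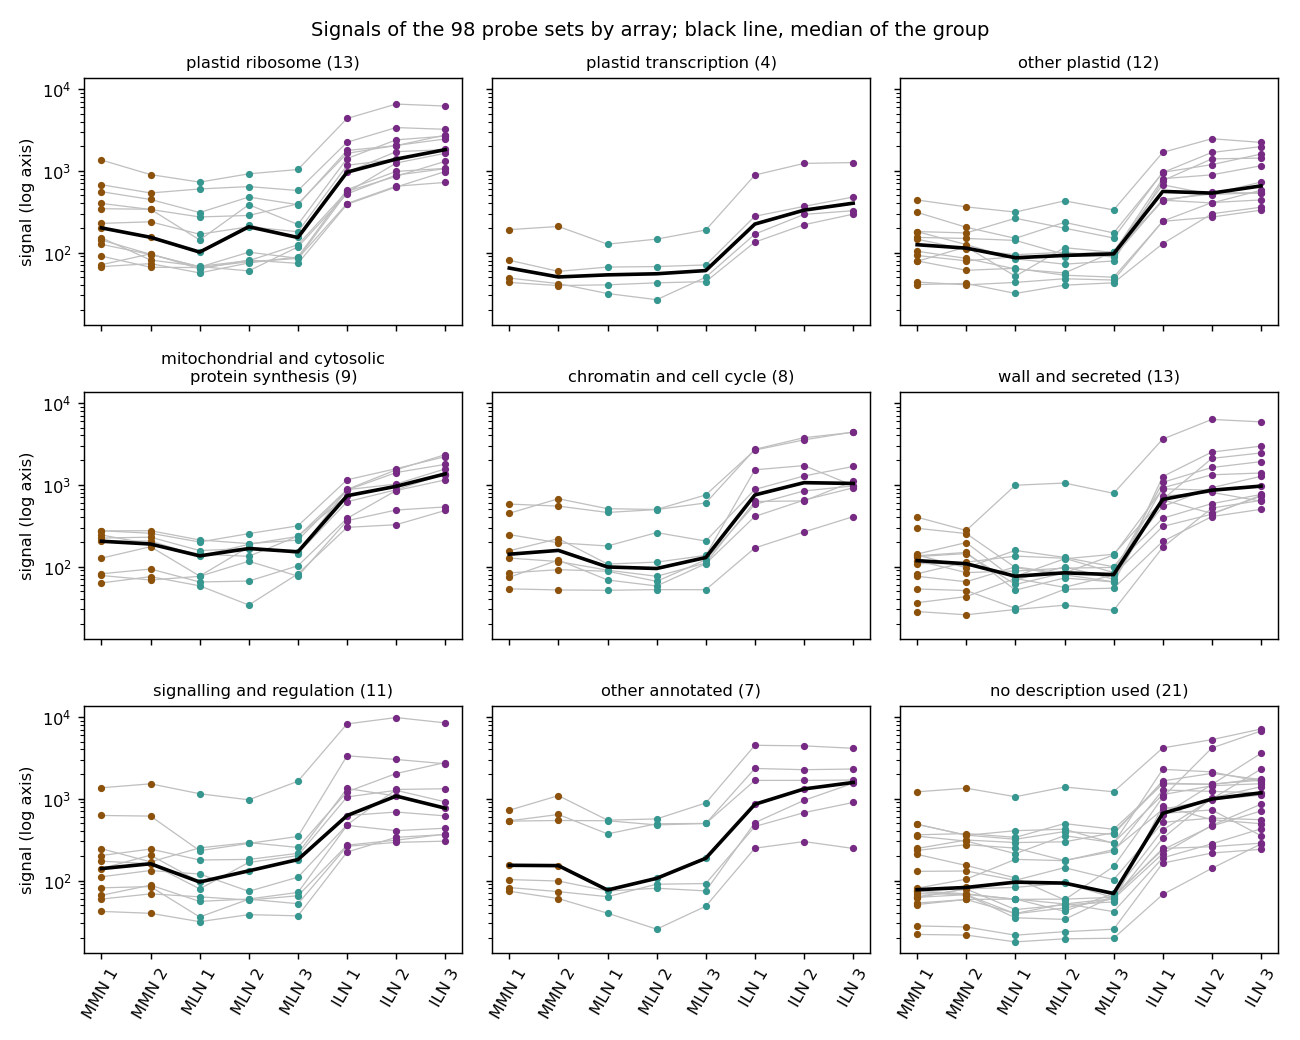
Signal of each member (log axis) on the MMN, MLN and ILN arrays, with 1 panel for each role and its number of members; grey lines join the values of 1 probe set and the black line is the median of the panel. All ILN points of a probe set lie at least 3 times above its mature points, as the rule requires, and ILN 1 is often the lowest of the ILN arrays.

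Plastid ribosomal proteins formed the largest set with 1 shared function, with 13 members. In these 13 the geometric mean was 4.31 to 12.1 times lower in MMN than in ILN and 4.79 to 12.5 times lower in MLN than in ILN. AT4G17560, a ribosomal protein of the L19 family, had signals of 67.4 and 73.4 in MMN, 56.5, 74.8 and 88.6 in MLN, and 588, 984 and 1070.2 in ILN, and its lowest ILN array was 6.63 times its highest mature array. A relative in the same L19 family, AT5G47190, had 90.6 and 66.2 in MMN, 65.6, 77.3 and 85.0 in MLN, and 398, 648 and 721 in ILN. Both L19 genes stayed below the array median on every mature array. The brightest was SSR16, the S16 protein of the small subunit, with 1354 and 899 in MMN, 727, 918 and 1037 in MLN, and 4365, 6542 and 6186 in ILN. It was also well above the array median in mature nectaries. Of the proteins named as plastid-specific, PSRP4 had 228 and 238 in MMN, 168, 207 and 179.9 in MLN, and 1167, 1390.0 and 1858 in ILN. The others so named, PSRP2, PSRP5 and PSRP6, reached ratios of 4.14, 3.30 and 3.19. In the large subunit, RPL15 had 201 and 154 in MMN, 102, 218 and 153 in MLN, and 963, 1714 and 1814 in ILN, and RPL4 had 152 and 81.2 in MMN, 68.1, 79.7 and 125 in MLN, and 561, 856 and 1306 in ILN. RPL21C had 344 and 339 in MMN, 143, 385 and 221 in MLN, and 1411, 2389.6 and 2653 in ILN, the widest spread of the set among mature arrays as a ratio. The genes AT2G43030 (L3 family), emb2394 (L6 family) and AT4G01310 (L5 family) had ratios of 4.09, 4.03 and 3.82.

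Plastid transcription had 4 members, all of them proteins that associate with the plastid-encoded RNA polymerase. FSD3, an iron superoxide dismutase that protects the plastid nucleoid, had 191 and 209 in MMN, 127, 146 and 189 in MLN, and 888, 1232 and 1261 in ILN. FLN1, a fructokinase-like protein, had 80.6 and 59.0 in MMN, 66.6, 67.6 and 70.7 in MLN, and 278, 368 and 478 in ILN. PDE312, also known as PTAC10, had 48.8 and 41.8 in MMN, 31.6, 26.6 and 50.0 in MLN, and 169, 293 and 326 in ILN, and PTAC12, also known as HEMERA, had 43.2 and 39.6 in MMN, 40.4, 42.7 and 44.2 in MLN, and 135, 219 and 295 in ILN. In mature nectaries only FSD3 exceeded the array median, while the other 3 stayed between 26.6 and 80.6.

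The other 12 plastid members included chaperones, redox proteins and enzymes. AT3G18680, annotated as an aspartate/glutamate/uridylate kinase, had 78.3 and 118 in MMN, 51.5, 115 and 100.5 in MLN, and 802, 893 and 1152 in ILN, the third largest ratio of all, at 6.81. CPN60B, the beta subunit of the plastid chaperonin that folds RuBisCO, had 440.0 and 362 in MMN, 313, 429 and 333 in MLN, and 1680.1, 2465 and 2223 in ILN. AT3G47650, of the BSD2 family of RuBisCO assembly factors, had 181 and 174 in MMN, 263, 199 and 151 in MLN, and 959, 1189.6 and 1601 in ILN. Both stayed above the array median on every mature array. CYTC6A, a c-type cytochrome of the thylakoid lumen, had 43.7 and 40.4 in MMN, 43.3, 47.9 and 46.2 in MLN, and 242, 409 and 441 in ILN. PPa6, a plastid pyrophosphatase, had 180.5 and 125 in MMN, 84.0, 72.3 and 79.1 in MLN, and 759, 1399 and 1430.1 in ILN, and was the member of this set with the largest difference between the mature types, at 0.94 on the log2 scale for MMN minus MLN, which did not pass the test. HY2, which makes the chromophore of phytochrome, and HPT1, which starts tocopherol synthesis, had ratios of 3.04 and 3.34. Ratios of the lumen protein AT5G52970, emb1211, the kinase NDPK2, the ferredoxin-like FdC1 and the NDH complex subunit PnsL1 lay between 3.01 and 4.37. Of a list of 15 photosynthesis genes 4 were found by name. None of the 4 was a member or was called lower in MMN or MLN than in ILN by limma. LHCB4.1, a light-harvesting protein of photosystem II, had 3106 and 3729 in MMN, 4026, 4070.4 and 5467 in MLN, and 4479, 4809 and 5167 in ILN. PSBO1, of the oxygen-evolving complex, had 3701 and 3519 in MMN, 2865, 3619.7 and 5129 in MLN, and 2635, 3819.6 and 4178 in ILN. RCA, the RuBisCO activase, was higher in MMN, with a log2 difference MMN minus ILN of 0.96 (standard error 0.28, limma adjusted p = 0.0307), and in MLN, with MLN minus ILN of 0.82 (standard error 0.25, limma adjusted p = 0.0327).

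Since members had to pass the rule, ribosomal protein genes were also looked at without regard to how they moved. The part held of a table of genes the study called present supplied annotations for 1434 probe sets, ordered by probe number, and this list was added after the data had been seen. Genes of the plastid genome came from the platform annotation. Of all 22746 probe sets, 8.86% were called lower and 9.97% higher in MMN than in ILN. For MLN the shares were 11.5% lower and 12% higher. The nuclear sets below hold only genes called present, so these shares are not a like background for them. Ribosomal protein genes of the nucleus were mostly lower in mature nectaries, and those of the plastid genome mostly did not pass the test. All 15 probe sets for cytosolic 40S and 60S proteins had negative log2 differences from ILN in both mature types. Limma called 9 of them lower in MMN, where the median was -1.38, and 13 in MLN, where it was -1.52. Without ILN 1 all 15 were called lower in both. Another 10 nuclear ribosomal protein genes, annotated without a 40S or 60S subunit, were not members. Of these, 9 were called lower in MMN, with a median of -1.38, and all 10 in MLN, with a median of -1.49. Over all probe sets the median was 0.11 for MMN minus ILN and 0.17 for MLN minus ILN. These comparisons share the ILN arrays.

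Plastid genome transcripts for ribosomal proteins differed from both sets. Of 15 probe sets, 8 had a negative log2 difference in MMN, with a median of -0.20, and 10 in MLN, with a median of -0.13. Limma called 1 lower in MMN and 1 in MLN, and this number was 0 to 2 when any 1 array was left out. In both cases the called probe set was rps18. It had 637 and 706 in MMN, 1028, 1029 and 640.4 in MLN, and 1547, 2215 and 1200.3 in ILN. By contrast rps4, the brightest of them, had 5993 and 5442 in MMN, 7885, 7090.4 and 4804 in MLN, and 6715, 6683 and 3616 in ILN, and rpl33 had 1307 and 1109 in MMN, 1569, 1635 and 1303 in MLN, and 1837, 1830.2 and 1188 in ILN, so mature and immature arrays overlapped. RPL9, a nuclear gene for a large subunit protein that was not a member, had 239.9 and 231 in MMN, 99.9, 195 and 176 in MLN, and 615, 1241 and 1454 in ILN, a log2 difference MLN minus ILN of -2.78 (standard error 0.33, limma adjusted p = 1.72e-04). The difference between the nuclear and plastid sets was not tested. Plastid transcripts mostly lack long poly(A) tails. The study names the amplification kit, MessageAmp II-Biotin Enhanced, but its text does not state the primer. How far priming bears on the plastid genome signals was not tested, so their levels are not set against those of nuclear genes.

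**Figure D2:**
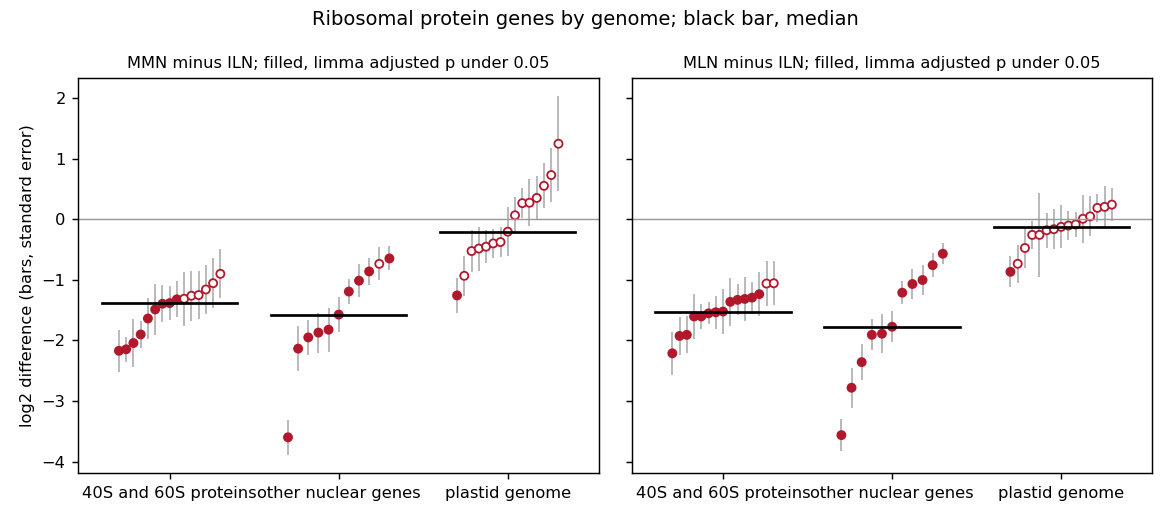
Log2 difference of each ribosomal protein probe set for MMN minus ILN (left) and MLN minus ILN (right), with its standard error; 15 cytosolic 40S and 60S proteins, 11 other nuclear genes (1 of them a member, AT4G17560) and 15 of the plastid genome. Filled points had a limma adjusted p under 0.05, and in the plastid genome set 1 point is filled in each panel.

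Mitochondrial and cytosolic protein synthesis was represented by 9 members. The 3 cytosolic ones given this role were ribosomal proteins: AT3G04920 (S24), AT3G28900 (L34) and AT5G22440 (L10a). Members without a description here were not sorted and may include others. AT3G04920, or RPS24A, had 204 and 205 in MMN, 135, 187 and 234 in MLN, and 876, 1524 and 2335 in ILN. Its paralog RPS24B (AT5G28060), not a member, had 298 and 253 in MMN, 314, 407 and 269 in MLN, and 742, 1299 and 1953 in ILN, so that its ILN 1 signal was less than 3 times its mature signals. AT3G28900 was the brightest of the set in mature nectaries, with 274 and 255 in MMN, 199.7, 253 and 315 in MLN, and 1149, 1573 and 2206 in ILN. Among mitochondrial members, the elongation factor EF-Tu gene AT4G02930 had 223 and 229 in MMN, 157, 166 and 152 in MLN, and 871, 1021 and 1564 in ILN. HSP60, the mitochondrial chaperonin, had 81.7 and 93.3 in MMN, 64.8, 66.5 and 102 in MLN, and 388, 850.4 and 1147 in ILN. TIM9, which escorts proteins across the space between the mitochondrial membranes, had 273 and 274 in MMN, 212, 191 and 211 in MLN, and 861, 1409.8 and 1775 in ILN. These 3 were lower than in ILN by 4.72 to 8.29 times in MMN and by 6.33 to 9.50 times in MLN. AT5G46160, the paralog of the ovule growth gene HUELLENLOS and of the L14 family, had a ratio of 3.13, and AT2G18400 of the L6 family one of 3.02. The last of the 9, AT4G30330, encodes the splicing protein snRNP E and was placed here for convenience, with a ratio of 3.70.

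Histones made up 6 of the 8 chromatin and cell cycle members. HTB2, a histone H2B, had 83.7 and 91.7 in MMN, 87.7, 66.0 and 121 in MLN, and 576, 840.2 and 968 in ILN, and HTA6, a histone H2A, had 581 and 548 in MMN, 459, 498 and 599.7 in MLN, and 2710.3, 3758 and 4374 in ILN. HTA8, a variant histone H2A, was the dimmest, with 53.4 and 51.8 in MMN, 51.3, 52.3 and 52.1 in MLN, and 169, 265 and 407 in ILN. In all 3 the ILN 1 array was the lowest ILN array and ILN 3 the highest. The other 3 are probe sets that match several genes, 2 for histone H3 and 1 for histone H4, so their signals cannot be given to 1 gene. The H4 probe set had 448 and 675 in MMN, 509.9, 499 and 752 in MLN, and 2654, 3534 and 4417 in ILN. The brighter H3 probe set had 127 and 115 in MMN, 90.4, 76.1 and 110.5 in MLN, and 625, 635 and 1098 in ILN. TSO2, the small subunit of the ribonucleotide reductase that supplies building blocks for DNA, had 246 and 195 in MMN, 179, 260.2 and 205 in MLN, and 878, 1281 and 1672 in ILN. SIM, an inhibitor of cyclin-dependent kinases known to promote endoreduplication in leaf hairs, had 156 and 219 in MMN, 107, 113 and 137 in MLN, and 1524, 1715 and 978 in ILN and differed from the histones in that ILN 3 was its lowest ILN array.

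The other replication genes found by name were also lower in mature nectaries. On a list of 18 replication genes 3 were found. One of them, TSO2, is a member, so that its place was fixed by the rule, and both of the others were called lower in MMN and in MLN than in ILN by limma. RNR1, the other subunit of ribonucleotide reductase, had 93.6 and 102 in MMN, 43.2, 67.3 and 73.6 in MLN, and 255, 637 and 836 in ILN, and its MMN minus ILN difference on the log2 scale was -2.40 (standard error 0.43, limma adjusted p = 0.00269). For MLN minus ILN it was -3.10 (standard error 0.38, limma adjusted p = 2.10e-04). ICU2, a catalytic subunit of DNA polymerase alpha, had 25.5 and 22.0 in MMN, 28.6, 26.2 and 30.2 in MLN, and 49.5, 74.3 and 101 in ILN, and its log2 difference MMN minus ILN was -1.60 (standard error 0.26, limma adjusted p = 0.00171). No mitosis gene found by name was called lower in mature nectaries. Of the 18 listed, 3 were found. AUR1, an Aurora kinase of dividing cells, was higher in MLN than in ILN. Its log2 difference was 0.99 (standard error 0.27, limma adjusted p = 0.0232). AUR2 and the centromeric histone HTR12 did not pass in either comparison. Their log2 differences were -0.57 and -0.70 for MMN minus ILN and -0.29 and -1.05 for MLN minus ILN. The last of these, for HTR12, came close (limma adjusted p = 0.0527). HTR12 had 35.0 and 37.7 in MMN, 23.2, 37.1 and 26.7 in MLN, and 32.3, 58.1 and 109 in ILN. AUR2 lay below the array median on every array. Signals this low limit what these genes can show.

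The 13 members of the cell wall and outside the cell held the 2 largest ratios of all 98. AT2G26440, a pectinesterase that removes methyl groups from pectin, had 36.2 and 43.0 in MMN, 71.5, 55.8 and 79.0 in MLN, and 921, 1324 and 1392 in ILN, and its lowest ILN array was 11.7 times its highest mature array. The multicopper oxidase-like gene sks4, related to the wall protein SKU5, had 81.7 and 113 in MMN, 134, 126 and 84.4 in MLN, and 1071, 1626 and 1916 in ILN, a ratio of 7.98. AT1G48280, annotated as a hydroxyproline-rich glycoprotein, had 132 and 144 in MMN, 60.4, 83.9 and 138 in MLN, and 891, 858 and 963 in ILN. No mature array of these 3 genes exceeded 144.3. AT5G45650, a subtilase and so a secreted protease of the subtilisin type, had 28.2 and 25.7 in MMN, 29.9, 33.7 and 29.2 in MLN, and 172, 519 and 644 in ILN. AT1G55260, a lipid transfer protein, had 142 and 196 in MMN, 68.7, 99.5 and 70.3 in MLN, and 662, 2099.8 and 2449.7 in ILN. In both of these ILN 1 lay well under the other ILN arrays. AGP9, an arabinogalactan protein of the wall, had 139 and 96.9 in MMN, 158, 129 and 99.4 in MLN, and 543, 922 and 1268 in ILN, and the alpha-galactosidase gene AGAL1 had 53.2 and 50.9 in MMN, 30.9, 52.7 and 54.4 in MLN, and 203, 409 and 501 in ILN. The subtilase AT3G14240, the GDSL lipase AT1G31550 and the aspartyl protease AT1G01300 had ratios of 3.15, 3.30 and 3.11. The remaining 3, AT1G75900, SCPL34 and PGIP2, are given with the comparison of the mature types. Of 20 cuticle and wax genes, 1 was found by name. CER1, of wax alkane synthesis, had 1228 and 1064 in MMN, 430.2, 408 and 987 in MLN, and 2342, 3904 and 4065 in ILN and did not meet the rule. Its log2 difference MMN minus ILN was -1.55 (standard error 0.37, limma adjusted p = 0.0129), and MLN minus ILN was -2.58 (standard error 0.33, limma adjusted p = 2.54e-04).

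The 11 receptors and regulators ranged widely in signal. UVR8, the receptor of UV-B light, had 1360.0 and 1520.5 in MMN, 1150.0, 969 and 1636 in MLN, and 8204, 9814 and 8445 in ILN, the highest ILN signals of all 98. Its mature signals were also well above the array median. TMK1, a leucine-rich repeat receptor kinase of auxin responses, had 173 and 160.3 in MMN, 79.2, 167 and 201 in MLN, and 1052, 1266 and 915 in ILN. WNK1, a kinase of the WNK family, had 66.0 and 87.9 in MMN, 55.6, 59.4 and 71.6 in MLN, and 472, 407 and 436 in ILN. RGL1, a DELLA repressor of gibberellin responses, had 111 and 133 in MMN, 120.0, 73.9 and 109.8 in MLN, and 480.1, 1297 and 1324 in ILN. DWF1, a sterol reductase on the route to brassinosteroids, had 245 and 169 in MMN, 251, 291 and 254 in MLN, and 1214, 2032 and 2769 in ILN. For RGL1 and DWF1 the ILN 1 signal was the lowest in ILN by a wide margin, which was not so for UVR8, TMK1 or WNK1. EDA40, a RING-type zinc finger protein, had 41.9 and 39.8 in MMN, 31.4, 38.3 and 37.0 in MLN, and 223, 337 and 365 in ILN. BPEp, a bHLH factor known to limit petal growth, had 139.9 and 204 in MMN, 95.9, 131 and 180.3 in MLN, and 623, 687 and 617 in ILN, a ratio of 3.02, close to the threshold. The calcium pump ACA4, HHP2 and the RCC1 family gene AT1G65920 had ratios of 3.94, 3.16 and 3.11.

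Among the 7 members with other annotations, SIP2 and GLN1.3 were bright in both stages. SIP2, an alkaline alpha-galactosidase that splits raffinose, had 724 and 1090.4 in MMN, 547, 566 and 887 in MLN, and 4497, 4425 and 4132 in ILN. GLN1.3, a cytosolic glutamine synthetase, had 536 and 641 in MMN, 372, 494 and 499 in MLN, and 2344, 2263 and 2305 in ILN. HCD1, of the enoyl-CoA hydratase/isomerase family, had 532 and 542 in MMN, 538, 478 and 498 in MLN, and 1674, 1675 and 1692 in ILN. In these genes the 3 ILN arrays differed little from each other. DI21, a drought-induced gene, had 103 and 98.6 in MMN, 74.5, 80.5 and 74.7 in MLN, and 509.7, 955 and 1545 in ILN, and the harpin-induced family gene AT4G01410 had a ratio of 4.98. A cytochrome P450 probe set matches several genes, with a ratio of 4.57, and AT5G52280, annotated as related to protein transport, had one of 3.34.

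No role was given to 21 members, 17 with a locus and 4 without a gene name. Their lowest ILN signals ranged over 67.5 to 4180.2. The largest ratio was that of the unnamed probe set 262595_at, with 77.3 and 82.3 in MMN, 95.6, 95.5 and 66.4 in MLN, and 629, 1491 and 3586 in ILN. AT1G48330 had 63.4 and 78.9 in MMN, 44.2, 50.4 and 54.8 in MLN, and 815, 554 and 495 in ILN, the second largest ratio of the 21, at 6.27. AT2G43550 had 50.9 and 58.7 in MMN, 59.4, 42.1 and 69.4 in MLN, and 416, 991 and 2303 in ILN. These 3 did not share an order among the ILN arrays, since 262595_at and AT2G43550 were highest on ILN 3 and AT1G48330 on ILN 1. AT1G12080, with 27.9 and 27.1 in MMN, 21.5, 23.7 and 25.4 in MLN, and 163, 217 and 241 in ILN, was among the dimmest. AT1G09310 had 209 and 153 in MMN, 108, 58.0 and 149 in MLN, and 1043, 4170.3 and 6719 in ILN, the widest span in ILN, and AT5G07030 had 69.1 and 67.7 in MMN, 59.3, 51.8 and 60.1 in MLN, and 328, 1025 and 1402 in ILN. The bright probe sets 261416_at and AT3G22210 had lowest ILN signals of 4180.2 and 1614. The other 13 had ratios of 3.04 to 4.30.

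MMN and MLN were compared to find out whether members low in both mature types had the same level in them. A positive log2 difference means higher in MMN. Over all 22746 probe sets limma called 0.73% at an adjusted p under 0.05, 0.572% higher in MMN and 0.158% lower. Of the 98 members, 4 were called, 3 higher in MMN and 1 lower. The difference lay within a factor of 2 for 92 of 98. It was at least 2-fold higher in MMN for 4, against 1.52% of all probe sets, and at least 2-fold lower for 2, against 0.488%. The median difference was 0.23, against -0.03 over all probe sets. It was 0.13 without MLN 1 and 0.35 with the replicate number as a block. In all, 74 members had a mean log2 signal higher in MMN, against 44.6% of all probe sets. In 27 members both MMN arrays lay above all MLN arrays, a pattern found in 11% of all probe sets, and in 6 both lay below, found in 14.1%. A higher MMN signal was found in 11 of 13 members of the plastid ribosome set, 10 of 11 in signalling and regulation and 6 of 13 among wall and secreted proteins. These shares were not tested. The cap that the rule sets on the highest mature array does not hold for all probe sets, so those are not a like background. The spread in the limma fit also draws on the ILN arrays, which the rule used.

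**Figure D3:**
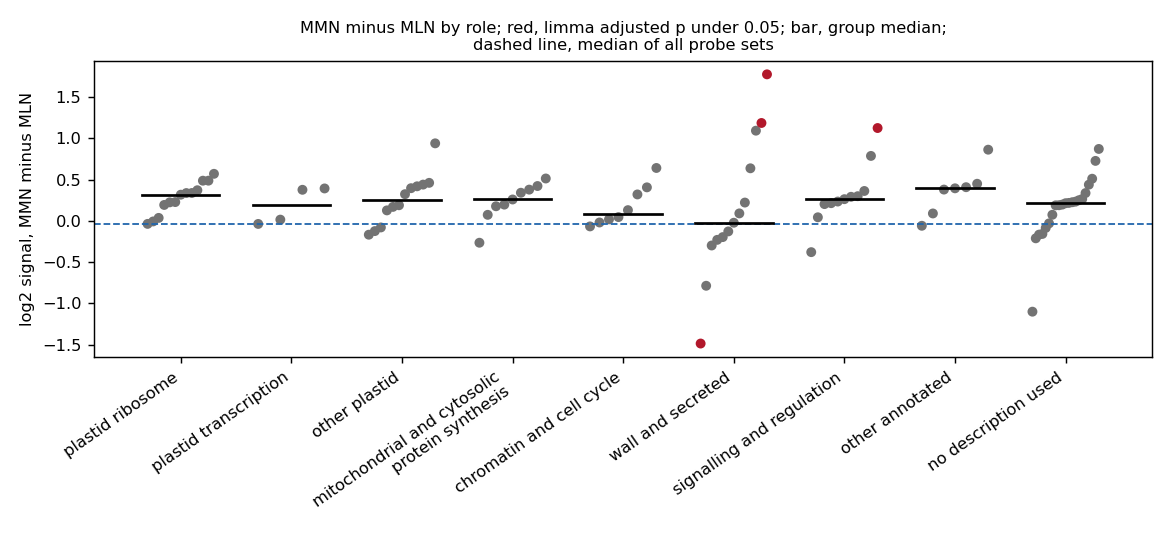
Log2 difference MMN minus MLN of each of the 98 members by role; black bars are medians of the role, the dashed line is the median of all probe sets (-0.03), and red points had a limma adjusted p under 0.05. The 4 red points are AT1G75900, SCPL34 and PGIP2 among wall and secreted proteins and ACR4 among regulators.

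The gene with the largest difference was AT1G75900, annotated as the extracellular lipase EXL3, with 293 and 253 in MMN, 97.3, 79.4 and 65.1 in MLN, and 1261, 2510.3 and 2964 in ILN. All MLN arrays were below all MMN arrays, and both were below ILN, as the rule requires. The log2 difference MMN minus MLN was 1.78 (standard error 0.33, limma adjusted p = 0.0374). SCPL34, a serine carboxypeptidase-like protein, had 135 and 149 in MMN, 51.6, 72.5 and 64.9 in MLN, and 729, 806 and 630.0 in ILN, a difference of 1.19 (standard error 0.23, limma adjusted p = 0.0407). ACR4, a protein with ACT domains and not the receptor kinase of the same symbol, had 624 and 613 in MMN, 232, 284 and 345 in MLN, and 3347, 3017 and 2674 in ILN, a difference of 1.13 (standard error 0.21, limma adjusted p = 0.0413). In each of these 3 genes both MMN arrays lay above all MLN arrays. Their place below ILN was fixed by the rule. PGIP2, an inhibitor of the polygalacturonases with which fungi break down pectin, ran the other way, with 401 and 276 in MMN, 987, 1049.5 and 786 in MLN, and 3619, 6288 and 5871 in ILN and a difference of -1.49 (standard error 0.27, limma adjusted p = 0.0354). Here both MMN arrays lay below all MLN arrays. The lipid transfer protein AT1G55260 (1.09 on the log2 scale) and the unnamed 261769_at (-1.10) had differences beyond a factor of 2 that did not pass, with limma adjusted p = 0.602 and 0.084.

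These 4 calls depended on single arrays. None of the 98 was called by limma without MMN 1, MMN 2, MLN 1, MLN 2 or ILN 2, where 8 to 11 had an unadjusted p under 0.05. Without MLN 3 limma called 2 and without ILN 1 it called 6. The 4 directions held in each of these fits. With all arrays 11 members had an unadjusted p under 0.05, 8 higher in MMN and 3 lower, against 7.41% of all probe sets.

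**Figure D4:**
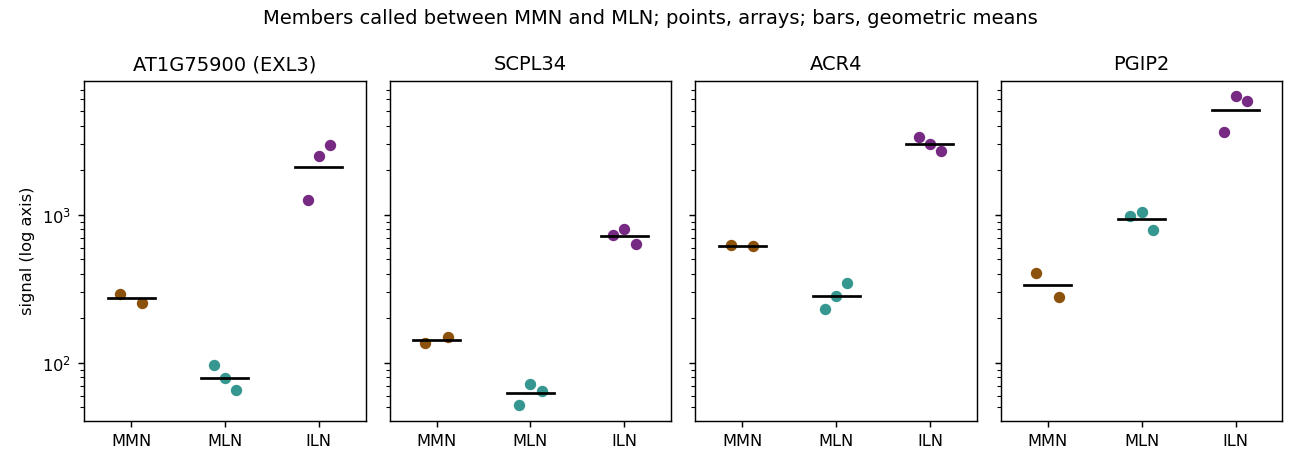
Signals (log axis) of the 4 members called between MMN and MLN on each MMN, MLN and ILN array, with bars at geometric means. In AT1G75900, SCPL34 and ACR4 the MMN points lie above the MLN points, and in PGIP2 below them. All ILN points lie higher, as the rule requires.

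The 3 ILN pools were not alike for the members. ILN 1 was the lowest ILN array in 78 of 98 members, and ILN 3 the highest in 75. Over all probe sets ILN 1 was the lowest in 33.8% and ILN 3 the highest in 26.4%, and over the 4341 probe sets whose mean log2 signal lay in the interquartile range of the members these shares were 46.0% and 35.8%. The lowest ILN array is part of the rule, so these counts describe the members and were not tested. The signal of ILN 3 was a median of 1.68 times that of ILN 1 over the members, against 0.923 times over all probe sets and 1.03 times over those of like signal. Sets differed in this respect. ILN 1 was the lowest in all 26 members of the plastid ribosome, plastid transcription and mitochondrial and cytosolic protein synthesis sets, with median ratios ILN 3 to ILN 1 of 1.82, 1.83 and 1.92. It was the lowest in 6 of 11 regulators, with a median ratio of 1.03. Among the 21 members without a role, some of which may belong to these sets, it was the lowest in 15. The 15 cytosolic ribosomal protein genes, which the rule did not choose, had a median ratio of 3.05, with ILN 3 highest in 15 and ILN 1 lowest in 14. The plastid genome set had 0.818, with ILN 3 highest in none and ILN 2 highest in 12.

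**Figure D5:**
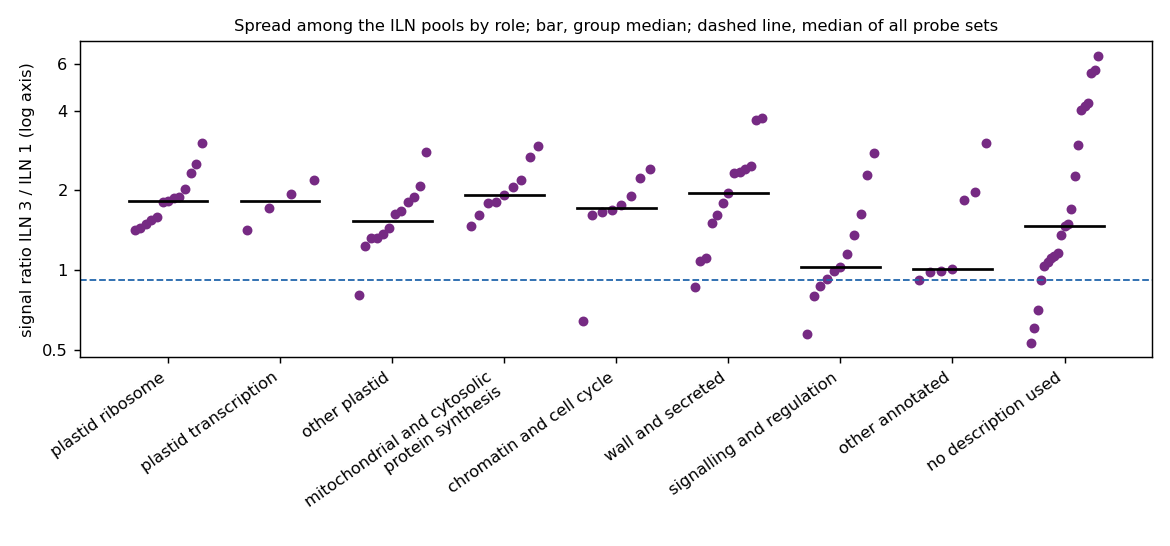
Ratio of the signal on ILN 3 to that on ILN 1 (log axis) for each member by role; black bars are medians and the dashed line is the median of all probe sets (0.923). All points of the plastid ribosome, plastid transcription and mitochondrial and cytosolic protein synthesis sets lie above 1, while regulators lie on both sides.

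ILN 1 also stood apart in the control probe sets that read the ends of housekeeping transcripts, where a high ratio of the 3' end to the 5' end is a sign of shortened RNA. For the first GAPDH pair the ratio was 3.18 and 2.63 in MMN, 5.73, 4.86 and 2.79 in MLN, and 6.93, 4.16 and 1.76 in ILN. For the second ubiquitin pair it was 1.67 and 1.60 in MMN, 1.83, 1.48 and 1.29 in MLN, and 2.82, 1.75 and 1.68 in ILN. ILN 1 was highest of all 8 arrays on both, and on 4 of the 6 pairs in all. The widest gap was on the second actin pair, with 9.97 and 8.77 in MMN, 16.8, 14.2 and 8.16 in MLN, and 31.1, 12.5 and 7.98 in ILN. MLN 1 was highest on the second GAPDH pair, and on the first actin pair ILN 1, at 8.00, was the lowest of the ILN arrays. The study reported GAPDH and ubiquitin ratios under a limit that several of these values exceed. Its ratios came from a quality check before normalization and those here from the deposited signals, so they are not a like measure. The part of RNA quality in the spread of the members was not tested. Without ILN 1 the rule gave 339 probe sets, and without any other single array 102 to 113. All 98 were kept each time, which was fixed in advance, since leaving out an array can only add members under this rule.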

How the data were processed

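Public arrays of other tissues were quantile-normalized and summarized by RMA along with these by the authors, in Expressionist software (version not given here), who afterwards set the median of every array to 100. The deposited intensity values are linear, and 64 control probe sets of 22810 were left out. Log2 signals were fitted with limma 3.58.1 in R 4.3.3, with 1 mean for each nectary type and a variance trend. Benjamini-Hochberg adjustment ran over 22746 probe sets, and calls needed an adjusted p under 0.05. The fit was also run on simulated arrays with known changes. Those were drawn independently and without the rule, so that run does not bear on the members. Members, lists and roles were chosen with earlier results of these data known.

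The genes named were to be the 25 members of 1 locus with the largest ratio, the 10 brightest in ILN, those called between MMN and MLN, members of fixed families or lists, and the 3 probe sets on either side of the threshold. Other members were named after their values had been seen. Symbols came from a TAIR10.1 table. A search of 16 family patterns in symbols and synonyms found 2 of 47 platform-named members, HTB2 and SCPL34, against 279 of 13484 platform-named probe sets. The 9 fixed lists cover nectary, tapetum, pollen, photosynthesis, perianth and carpel identity, DNA replication, mitosis, cuticle and flavonoid genes. Of the flavonoid genes found by name, UGT78D2 was higher in MMN and in MLN than in ILN, and DFR and UGT78D1 were not called.

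To check pairing, each array's deviations from its group mean were correlated across probe sets between arrays sharing a replicate number. They gave 0.338, 0.241 and 0.211 for MLN with ILN, so a fit with the replicate number as a block was run as an alternative. The main fit had no pairs, and such correlations do not show that the pools were paired. The deviations of MMN and MLN correlated at 0.07 and -0.02. Alternatives were other thresholds of the rule, another normalization or centring, other variance models, the replicate block and each array left out.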

Additional observations from a re-analysis of the deposited data

How the results depend on the processing

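The rule gave 364 members at a threshold of 2 times, 13 at 5 times and 437 with geometric means in place of single arrays. With 1 array left out, which can only add members, it gave 102 to 339. Over all probe sets limma called 166 between MMN and MLN, 1 by the methods' t-test on linear signals after Benjamini-Hochberg adjustment (1663 at an unadjusted p under 0.05), 575 with array weights (whose estimation stopped short of its convergence tolerance) and 41 to 308 with 1 array left out. Among the members it called 4, against 2 with no variance trend, 0 by the methods' t-test (14 at an unadjusted p under 0.05) and 0 to 6 with 1 array left out. With the replicate number as a block, 275 of all probe sets and 4 members were called, and the median MMN minus MLN difference of the members was 0.35. The 0.23 of the main setting became 0.13 to 0.30 with 1 array left out. The fixed lists had 10 of 29 probe sets called for MLN minus ILN, 7 to 12 with 1 array left out, and 7 for MMN minus ILN, 4 to 12 with 1 array left out. These list counts include TSO2, a member whose difference from ILN the rule had fixed. With 1 array left out, the cytosolic ribosomal set had 9 to 15 called lower in MLN and 6 to 15 in MMN. The other nuclear set, the member AT4G17560 included, had 9 to 10 and 6 to 11. The plastid genome set had 0 to 2 in both, and with the replicate block 2 in MMN. The cause of these changes was not tested. The search for promoter motifs was not run, since no promoter sequences were given. The median difference of the members and those of the 4 called genes between MMN and MLN kept their direction in every alternative run, and for the lists and ribosomal sets only counts were compared. With 2 MMN arrays the precision was limited above all in comparisons with MMN, and signals near the array floor carry background.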
